A study of Mus musculus with 48 samples.

Results

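Expression of 10 markers of hepatic stellate cells and fibroblasts was examined in mouse liver. The genes were Acta2, Tagln, Des, Lrat, Reln, Pdgfrb, Col1a1, Col1a2, Col3a1 and Dcn, 10 of the 13542 genes tested, chosen by name as markers of these cells. They were picked with earlier results of these data known. Each gene was represented by its single-symbol probe set with the highest mean over all 48 arrays, and all 10 passed the filter on dim probe sets. Livers came from offspring aged 3 weeks whose sires had eaten a low protein diet (LPD) or a control diet (CD) from 3 to 12 weeks of age. The offspring carried 1 of 3 genotype labels, which gave 6 groups of 8 arrays: ATF7+/–_LPD and ATF7+/–_CD, ATF7+/+_LPD and ATF7+/+_CD, and WT_LPD and WT_CD. The ATF7+/– label is the usual notation for animals with 1 intact Atf7 allele; ATF7, a relative of ATF2, is a transcription factor that responds to stress. The labels do not say what sets ATF7+/+ apart from wild-type. The median lobe of either sex was taken; the labels give neither the sex nor the litter of each animal, so p-values measure only the spread between these samples. High Y-linked expression was seen in 5 or 6 of the 8 arrays of every group.

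Hepatic stellate cells are the pericytes of the liver sinusoid. They lie between hepatocytes and endothelium, store vitamin A as retinyl esters in lipid droplets, and after injury can turn into myofibroblasts, which lose these stores, gain smooth muscle actin and secrete fibrillar collagen. Portal fibroblasts and vascular smooth muscle share several of these genes, Acta2 and Tagln above all with smooth muscle, so that no single marker names the cell. In bulk liver, fewer cells of a type and less RNA per cell cannot be told apart.

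The values were log2 expression, with array medians between 5.89 and 6.12. WT_CD replicates 4 and 5, and likewise ATF7+/+_CD replicates 7 and 8, differed little more on variable genes than on stable genes (ratios 1.28 and 1.25, against 1.91 to 5.18 in the other pairs). Each of these pairs may be 1 animal measured more than once and was counted as 1 sample, which left 46 samples. By their probe sets without a listed gene the arrays separated into 18 (set A) and 30 (set B). No label explains this separation, and each group contributed 3 of the first and 5 of the second. The defining hepatocyte marker Alb lay between 13.32 and 13.7 in all samples, and the endothelial Clec4g and the Kupffer cell Vsig4 had medians of 10.82 and 10.43. Atf7 itself had medians of 8.69 and 8.61 in ATF7+/–_LPD and ATF7+/–_CD, 9 and 8.96 in ATF7+/+_LPD and ATF7+/+_CD, and 8.8 and 8.9 in WT_LPD and WT_CD. Its difference of ATF7+/– minus ATF7+/+ passed (log2 -0.37, limma adjusted p = 0.00124), and that of ATF7+/– minus wild-type did not (-0.20, adjusted p = 0.242).

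In wild-type offspring, Acta2, Lrat and Reln rose in WT_LPD livers relative to WT_CD livers, by 1.59-fold, 1.45-fold and 1.34-fold. The other 7 markers did not pass the test, although the fitted difference was positive for all 10. The median log2 difference over all 10 was 0.33, against 0 over all genes tested, of which 51% were positive. Across all genes 377 of 13542 passed as higher in WT_LPD, which is 2.78%, and 110 passed as lower; 3 of 10 markers passed as higher and 0 as lower. The 10 genes were picked with earlier results of these data known, so these comparisons with all genes give no independent support. A gene passed at a limma adjusted p (Benjamini-Hochberg, over all genes tested) under 0.05.

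**Figure D1:**
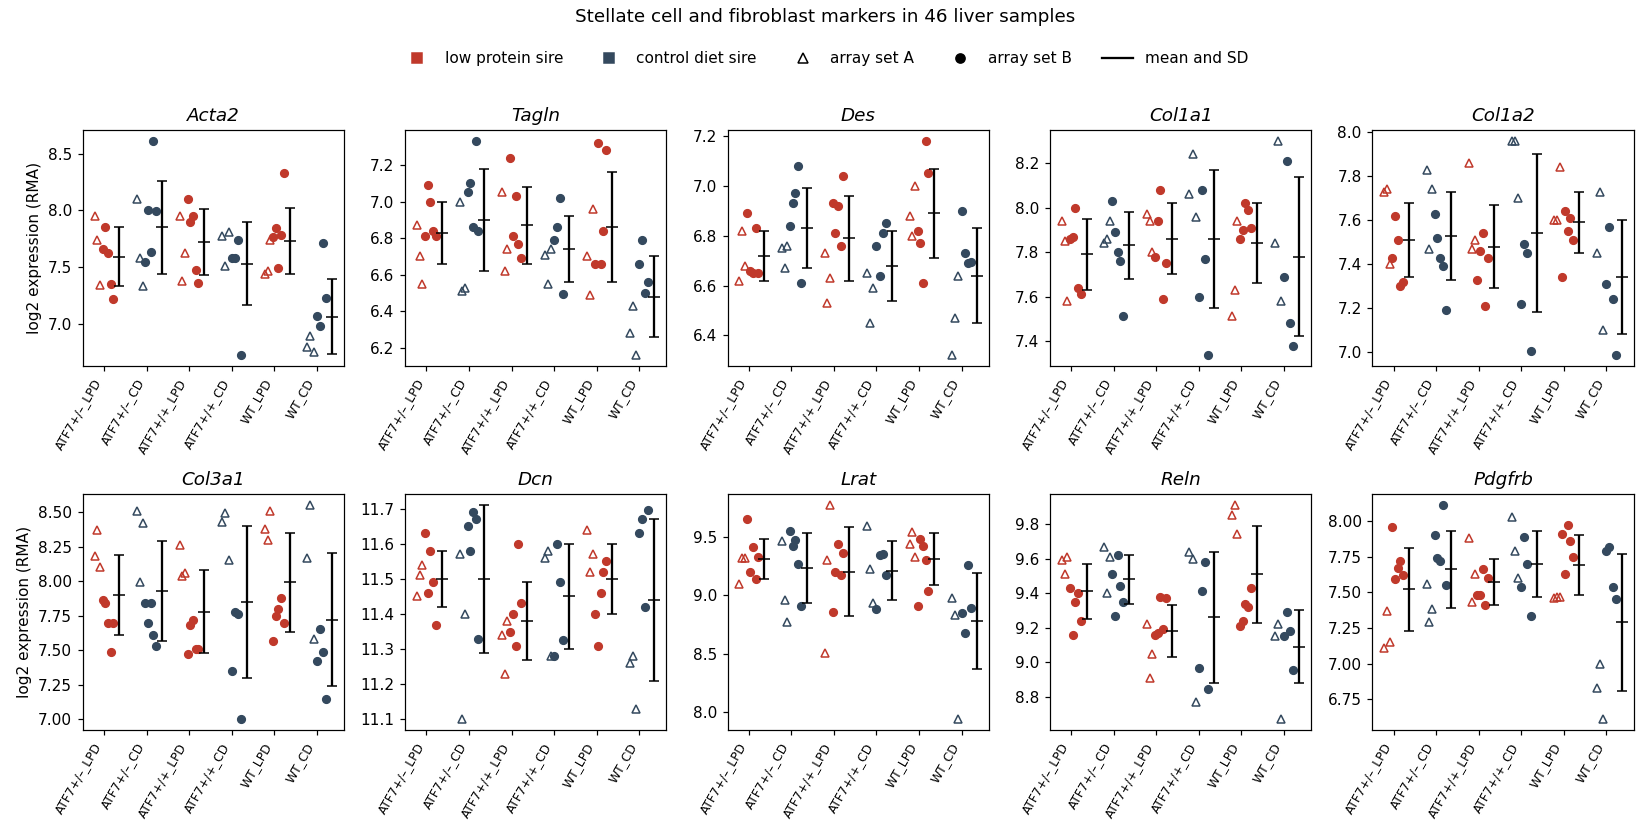
Log2 expression of the 10 markers in 46 liver samples, 1 panel per gene, with the genotype label and sire diet on the horizontal axis, open triangles for array set A and filled circles for set B; black bars give the mean and SD of each group. WT_CD has the lowest group mean for 9 of the 10 genes (the share of all genes was not counted), and WT_LPD and WT_CD overlap in every panel.

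Acta2 encodes smooth muscle alpha-actin, the contractile actin by which myofibroblasts are commonly recognised. It had a lowest, median and highest log2 value of 7.44, 7.75 and 8.33 in WT_LPD livers (n = 8), against 6.75, 6.98 and 7.71 in WT_CD livers (n = 7). Of the 8 WT_LPD samples, 5 lay above the highest WT_CD sample, and 1 WT_CD sample, replicate 3, lay above the lowest WT_LPD sample. The log2 difference was 0.67 ± 0.17 (SE, 95% interval 0.34 to 1, limma adjusted p = 0.0134), rank 204 of 13542 genes by p. Tagln encodes transgelin, an actin-bundling protein of smooth muscle. Its lowest, median and highest values were 6.49, 6.77 and 7.32 in WT_LPD and 6.16, 6.5 and 6.79 in WT_CD, so that 4 of 8 WT_LPD samples lay above the WT_CD range. Its difference of 0.38 ± 0.12 missed the threshold (adjusted p = 0.0607).

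Promoter windows of 300 bases around the annotated start came from RefSeq (GRCm38.p6) for 6 of the 10 genes (Acta2, Des, Lrat, Reln, Col1a2 and Col3a1). They were read for the CArG-like motif, the binding motif of serum response factor at muscle genes with at most 1 of its 6 central bases other than A or T, and for GGGCGG, the GC box read by factors of the Sp family, on both strands; no 2 matches overlapped in the windows shown. Acta2 is shown for its CArG-like matches, in capitals; its window lies at chr19:34255324-34255623, minus strand.

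Acta2 promoter: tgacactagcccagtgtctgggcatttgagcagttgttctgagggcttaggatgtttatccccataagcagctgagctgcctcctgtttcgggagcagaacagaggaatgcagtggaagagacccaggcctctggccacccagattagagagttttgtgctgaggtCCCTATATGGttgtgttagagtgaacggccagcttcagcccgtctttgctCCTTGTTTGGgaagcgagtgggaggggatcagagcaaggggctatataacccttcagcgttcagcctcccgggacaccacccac

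The 2 matches start at -84 and -34 relative to the annotated start, and the window holds no GGGCGG. Of 32851 mouse windows of this length, 9.98% hold a CArG-like match and 35.7% hold GGGCGG. Col1a2 and Lrat have 1 CArG-like match each, and Des, Reln and Col3a1 have none in these windows. Myl9, the gene whose values were most like those of Acta2, has 2, of which 1 has A or T at all 6 central positions, as do 1.63% of windows. A match is a stretch of letters, and whether a factor bound there was not measured.

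Lrat encodes lecithin retinol acyltransferase, the enzyme that esterifies retinol for storage in stellate cells, and Reln encodes reelin, a secreted glycoprotein that stellate cells make in liver. Lrat had a lowest, median and highest value of 8.91, 9.38 and 9.54 in WT_LPD and 7.94, 8.85 and 9.26 in WT_CD. Reln had 9.21, 9.38 and 9.91 in WT_LPD and 8.67, 9.15 and 9.29 in WT_CD. For each gene 6 of 8 WT_LPD samples lay above the highest WT_CD sample, all 8 lay above the WT_CD median, and the ranges overlapped at 2 WT_CD samples. The log2 difference was 0.53 ± 0.15 for Lrat (adjusted p = 0.0352) and 0.42 ± 0.12 for Reln (adjusted p = 0.0368). The 2 promoter windows are shown with GGGCGG, or its reverse complement CCGCCC, in capitals, since they differ in how many they hold. Lrat lies at chr3:82903925-82904224 and Reln at chr5:22344656-22344955, both on the minus strand.

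Lrat promoter: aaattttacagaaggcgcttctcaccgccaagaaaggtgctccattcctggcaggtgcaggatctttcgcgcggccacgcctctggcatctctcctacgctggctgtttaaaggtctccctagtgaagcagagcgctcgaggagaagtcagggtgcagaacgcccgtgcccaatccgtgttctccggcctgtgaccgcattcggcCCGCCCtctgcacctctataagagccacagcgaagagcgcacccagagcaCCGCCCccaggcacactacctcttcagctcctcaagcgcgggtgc

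Reln promoter: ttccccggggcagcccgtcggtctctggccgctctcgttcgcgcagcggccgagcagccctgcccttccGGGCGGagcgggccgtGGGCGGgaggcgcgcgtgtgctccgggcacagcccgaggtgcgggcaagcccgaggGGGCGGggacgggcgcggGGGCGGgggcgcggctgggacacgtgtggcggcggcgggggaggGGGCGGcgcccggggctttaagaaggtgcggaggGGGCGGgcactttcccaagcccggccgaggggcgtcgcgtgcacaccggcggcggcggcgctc

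Lrat holds 2 such matches, at -45 and 6, and Reln holds 6, between -181 and -13. Lrat also holds a CArG-like match at -223, left in lower case, and Reln holds none. GGGCGG was not confined to markers that passed: Des and Col1a2 hold 2 matches each, and Col3a1 holds none. Myl9 holds 3.

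Des encodes desmin, the intermediate filament of muscle and, in rodents, of stellate cells. It had 6.61, 6.85 and 7.18 in WT_LPD and 6.32, 6.69 and 6.9 in WT_CD (lowest, median and highest), a difference of 0.25 ± 0.08 that did not pass (adjusted p = 0.08). Pdgfrb encodes platelet-derived growth factor receptor beta, through which that growth factor drives stellate cell proliferation. Its values were 7.46, 7.69 and 7.97 in WT_LPD and 6.61, 7.46 and 7.82 in WT_CD, with a difference of 0.40 ± 0.14 (adjusted p = 0.125). In each gene 3 of 8 WT_LPD samples lay above all WT_CD samples.

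The fibrillar collagens and decorin did not pass. Col1a1 and Col1a2 encode the chains of type I collagen, Col3a1 encodes type III collagen, and Dcn encodes decorin, a small proteoglycan that binds collagen fibrils. Col1a2 had a lowest, median and highest value of 7.34, 7.6 and 7.84 in WT_LPD and 6.98, 7.31 and 7.73 in WT_CD (difference 0.25 ± 0.12, adjusted p = 0.285), and Col3a1 had 7.57, 7.84 and 8.51 against 7.15, 7.58 and 8.55 (0.27 ± 0.20, adjusted p = 0.567). Col1a1 had 7.51, 7.9 and 8.02 in WT_LPD and 7.38, 7.69 and 8.3 in WT_CD, and Dcn 11.31, 11.52 and 11.64 against 11.13, 11.42 and 11.7. The fitted difference was 0.06 for each of these 2 genes, with 95% intervals of -0.17 to 0.3 for Col1a1 and -0.11 to 0.22 for Dcn. No WT_LPD sample lay above the WT_CD range for Col1a1, Col3a1 or Dcn, and 1 did for Col1a2.

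Within array sets the wild-type difference was positive for 8 of 10 markers in both sets, and the exceptions were Dcn and Col1a1. For Acta2 the set A value was 0.74 and the set B value 0.59, and for Tagln they were 0.43 and 0.32. Lrat, Reln and Pdgfrb differed by 0.85, 0.82 and 0.65 in set A, against 0.31, 0.16 and 0.17 in set B. Reln shows the gap by sample: in set A it lay between 9.74 and 9.91 in WT_LPD and between 8.67 and 9.22 in WT_CD, and in set B between 9.21 and 9.43 in WT_LPD and between 8.96 and 9.29 in WT_CD. For Dcn the values were 0.35 (set A) and -0.16 (set B), and for Col1a1 -0.21 and 0.25. With array set A alone 6 markers passed (Acta2, Des, Dcn, Lrat, Reln and Pdgfrb), where 15.6% of all genes passed in either direction. With set B alone 0 did, where 4.72% of all genes passed. With the set as a block in the fit 6 did (Acta2, Tagln, Des, Lrat, Reln and Pdgfrb), where 9.26% of all genes passed; the difference between the sets was not tested. Array set accounted for 66.2% of the variance of Col3a1 over all samples, and for 28.9% or less of that of each other marker.

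**Figure D2:**
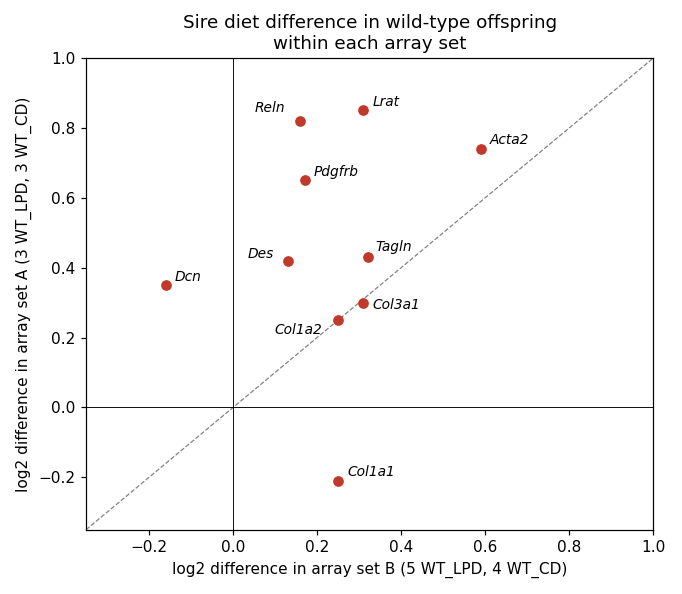
Log2 difference WT_LPD minus WT_CD of each marker within array set A (vertical axis) against array set B (horizontal axis); the dashed line marks equal differences. Acta2, Tagln, Col1a2 and Col3a1 lie near the line, Lrat, Reln and Pdgfrb lie well above it, and Dcn and Col1a1 have opposite signs in the sets.

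The wild-type result rested in part on 1 control animal. WT_CD replicate 8 was the lowest of its group for 6 of the 10 markers, and its Lrat value of 7.94 and Reln value of 8.67 lay below those of all other WT_CD samples. Without it, 0 markers and 219 genes passed, and Acta2, Lrat and Reln differed by 0.62, 0.39 and 0.35 (adjusted p = 0.0513, 0.164 and 0.142). Acta2 passed in each of the other 14 fits that left out 1 wild-type sample, Lrat passed in 7 of all 15 and Reln in 8 of 15. Lrat did not pass without WT_CD replicate 2, 7 or 8 or WT_LPD replicate 1, 2, 4, 5 or 6 (0.39 to 0.61 over the 15 fits, adjusted p up to 0.164). Reln did not pass without WT_CD replicates 4 and 5, 6 or 8 or WT_LPD replicate 1, 2, 6 or 8 (0.35 to 0.46, adjusted p up to 0.142). With array weights or with only the wild-type groups in the fit, Acta2 passed (adjusted p = 0.0466 and 0.0407), and Lrat and Reln did not. Reln also missed the threshold without the filter on dim probe sets (adjusted p = 0.0506) and with quantile normalization (0.0595), and passed in 11 of the 16 settings other than leaving out a sample, against 12 for Lrat and 15 for Acta2.

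In ATF7+/– and ATF7+/+ offspring no marker passed the diet comparison. Acta2 had a lowest, median and highest value of 7.22, 7.64 and 7.95 in ATF7+/–_LPD and 7.33, 7.81 and 8.61 in ATF7+/–_CD. In ATF7+/+_LPD it had 7.36, 7.76 and 8.1, against 6.72, 7.58 and 7.81 in ATF7+/+_CD. The groups overlapped in both labels, with differences of -0.26 ± 0.16 in ATF7+/– and 0.19 ± 0.17 in ATF7+/+. Lrat had 9.1, 9.32 and 9.65 in ATF7+/–_LPD against 8.77, 9.34 and 9.55 in ATF7+/–_CD (difference 0.08 ± 0.15), and 8.51, 9.25 and 9.77 in ATF7+/+_LPD against 8.88, 9.22 and 9.59 in ATF7+/+_CD (-0.01 ± 0.15). Reln had 9.16, 9.41 and 9.61 in ATF7+/–_LPD against 9.27, 9.47 and 9.67 in ATF7+/–_CD (-0.07 ± 0.12), and 8.91, 9.18 and 9.38 in ATF7+/+_LPD against 8.77, 9.41 and 9.64 in ATF7+/+_CD (-0.08 ± 0.12). All 8 ATF7+/+_LPD samples lay at or below the ATF7+/+_CD median of Reln. Over the 10 markers the differences ran from -0.26 to 0.08 with a median of -0.05 in ATF7+/–, and from -0.13 to 0.19 with a median of -0.04 in ATF7+/+; the adjusted p rounded to 1 for each. The ATF7+/+ median had no steady sign: it was -0.16 with 2 of 10 markers positive in array set A, and 0.1 with 8 of 10 positive in set B. Of all genes 0% passed in ATF7+/– (0 of 13542, with 178 at an unadjusted p under 0.05) and 0.00738% in ATF7+/+ (1 gene). The 178 are fewer than evenly spread p-values would give, and the reason was not tested.

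**Figure D3:**
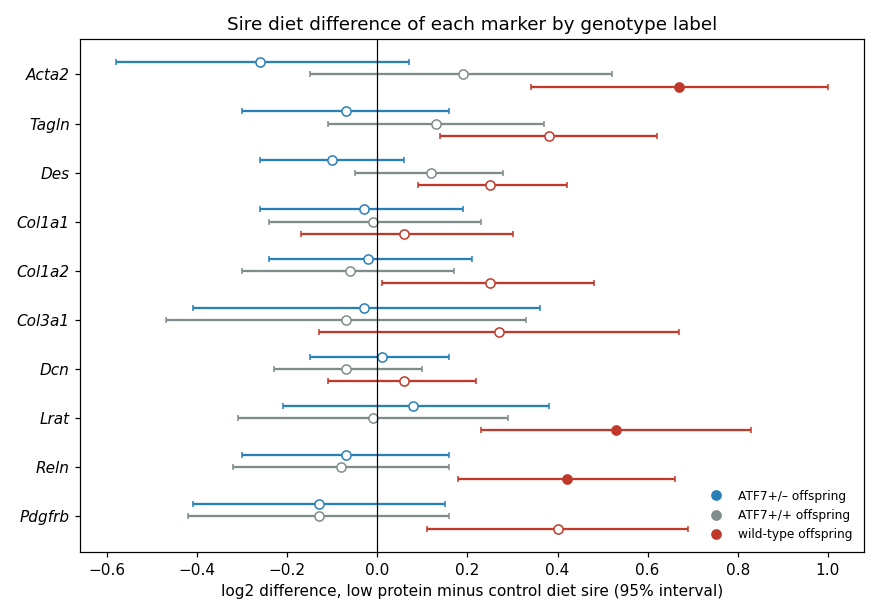
Log2 difference of low protein minus control diet sires for each marker, in ATF7+/–, ATF7+/+ and wild-type offspring from top to bottom within each gene; lines give 95% intervals and filled points passed at an adjusted p under 0.05. The 3 filled points are Acta2, Lrat and Reln in wild-type offspring.

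The difference between labels was tested in the same limma fit. For Acta2 the diet difference was -0.26 in ATF7+/– and 0.67 in wild-type offspring, and wild-type minus ATF7+/– came to 0.93 ± 0.23 (95% interval 0.46 to 1.39, limma adjusted p = 0.0396). Within array sets it came to 0.73 (A) and 1.01 (B). Across all genes 0.635% passed this comparison (86 genes). The call for Acta2 ended in 16 of 31 fits that left out 1 sample, with values from 0.82 to 1.03 and adjusted p from 0.0127 to 0.0883. These were the fits without WT_LPD replicate 3, 4, 6, 7 or 8, WT_CD replicate 1, 6, 7 or 8, ATF7+/–_LPD replicate 6, 7 or 8, or ATF7+/–_CD replicate 1, 4, 7 or 8. It also ended without the filter on dim probe sets (adjusted p = 0.0521), with median centring (0.067) and in either array set alone (0.175 in A, 0.102 in B). None of the other 9 markers passed; the next largest differences were 0.53 ± 0.20 for Pdgfrb (adjusted p = 0.289) and 0.49 ± 0.17 for Reln (adjusted p = 0.2). For wild-type minus ATF7+/+, which uses the same wild-type samples, no marker passed, against 0.0222% of genes (3 genes). There Lrat differed by 0.54 ± 0.21 (adjusted p = 0.497), Reln by 0.50 ± 0.17 (adjusted p = 0.357) and Acta2 by 0.48 ± 0.23 (adjusted p = 0.684). For ATF7+/– minus ATF7+/+ 0% of genes passed (0 genes, with 380 at an unadjusted p under 0.05, also fewer than evenly spread p-values would give), and Acta2 differed by -0.44 ± 0.23.

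Averaged over the 3 labels, the diet difference passed for no marker, against 0.805% of genes (109 genes), and ran from 0 for Dcn to 0.2 for Acta2 and Lrat. No marker passed between genotype labels averaged over diet. For ATF7+/– minus wild-type, 0.00738% of genes passed (1 gene), and Acta2 differed by 0.32 ± 0.11 (adjusted p = 0.496). For ATF7+/+ minus wild-type, 0.0222% passed (3 genes), and Acta2 differed by 0.23 ± 0.12 (adjusted p = 0.424). For ATF7+/– minus ATF7+/+, 0.155% passed (21 genes), and Reln differed by 0.23 ± 0.08 (adjusted p = 0.237).

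Set in order of group means, WT_CD was the lowest of the 6 groups for 9 of the 10 markers and ATF7+/+_LPD for Dcn. The share of all genes with WT_CD lowest was not counted. The markers share the same WT_CD samples, so the 9 are not separate observations. Acta2 averaged 7.85 ± 0.41 in ATF7+/–_CD, 7.73 ± 0.29 in WT_LPD, 7.72 ± 0.29 in ATF7+/+_LPD, 7.59 ± 0.26 in ATF7+/–_LPD, 7.53 ± 0.37 in ATF7+/+_CD and 7.06 ± 0.33 in WT_CD (SD). Neighbours in that order differed by less than the larger of their SDs, except for the step of 0.47 from ATF7+/+_CD to WT_CD. The same held for Tagln and Lrat, whose steps to WT_CD were 0.25 and 0.42 with larger SDs of 0.22 and 0.41. For the other 7 markers no step between neighbours exceeded the larger SD.

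The contractile genes Acta2 and Tagln varied together across samples within each array set, and so did Col1a2 with Col1a1 and with Col3a1. Of 45 pairs, 41 correlated positively in set A (median r 0.48, n = 18) and 44 in set B (median r 0.36, n = 28), with groups pooled. The permutations also ran across groups, so their p-values take in differences between groups. Acta2 and Tagln had Pearson r = 0.91 and Spearman rho = 0.89 in set A (permutation p = 1e-05 and 2e-05, the first the smallest that 100000 permutations give; adjusted p = 0.00018 and 0.0006 over 90 pairs), and r = 0.73 and rho = 0.7 in set B (permutation p = 4e-05 and 8e-05, adjusted 0.000514 and 0.00129). Without the 2 samples farthest from the Acta2 median r was 0.84 and 0.63. Col1a2 and Col3a1 had r = 0.86 and rho = 0.78 in set A (permutation p = 3e-05 and 0.00024, adjusted 0.00045 and 0.0027). In set B they had r = 0.88 and rho = 0.78 (permutation p = 1e-05 for each, adjusted 0.00018 and 0.00045). Without the 2 samples farthest out r was 0.75 and 0.79. Col1a1 with Col3a1 was weaker in set A (r = 0.5, rho = 0.43, permutation p = 0.034 and 0.0707, adjusted 0.0781 and 0.159) than in set B (r = 0.77, rho = 0.69). Pairs of a contractile gene with a collagen had median r of 0.41 (set A) and 0.44 (set B), against 0.65 and 0.88 for the collagen pairs. Dcn went with Reln in set A (r = 0.8, rho = 0.82, permutation p = 0.00013 and 0.0001, adjusted 0.00146 and 0.00129, r = 0.88 without the 2 farthest samples), while in set B r was 0.38 and rho 0.38 (permutation p = 0.0429 and 0.0485, adjusted 0.088 and 0.118, r = 0.49 without the 2 farthest).

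**Figure D4:**
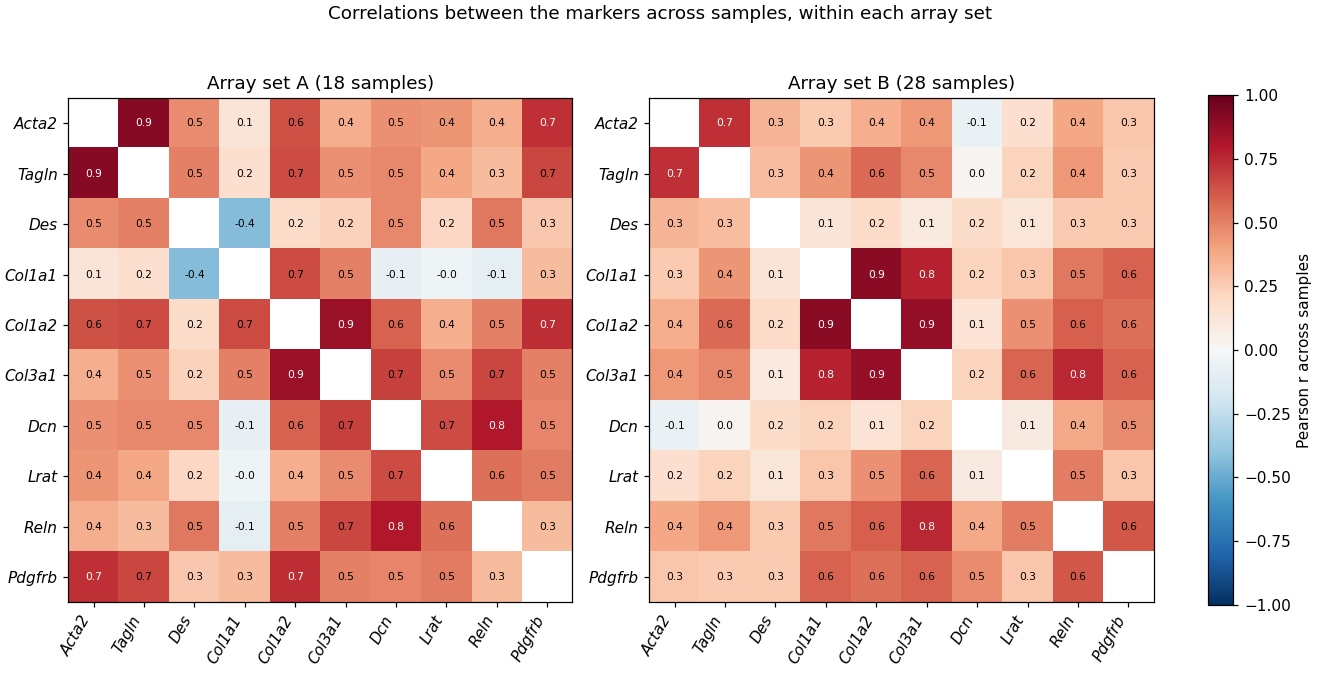
Pearson correlation between the 10 markers across samples within array set A (left, 18 samples) and array set B (right, 28 samples), with groups pooled; red is positive and blue negative. Acta2 with Tagln is the darkest pair in set A (0.91) and Col1a1 with Col1a2 in set B (0.9), and Des with Col1a1 in set A is the most negative pair (-0.43).

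With group and array set means taken off, the gene of all 13542 most like Acta2 over 46 samples was Myl9, a myosin regulatory light chain of smooth muscle (r = 0.75), followed by Tagln (0.7). Tagln was most like Acta2 and then Vim, the intermediate filament vimentin (0.68). For Lrat the likest genes were Rarb, a retinoic acid receptor (0.84), and Nr3c1, the glucocorticoid receptor (0.7). Reln was most like Sparc, a matrix glycoprotein (0.8), and Gulo, a vitamin C synthesis enzyme (0.77). Col1a1 was most like Col6a3 (0.88), a chain of type VI collagen, and Col1a2 (0.85), and Col1a2 and Col3a1 were each other's likest (0.88), with Fstl1, a secreted glycoprotein, next for Col3a1 (0.83). Fstl1 itself rose in WT_LPD by 0.71 (adjusted p = 0.0015). Dcn was most like Pdgfra, the alpha receptor of the same growth factor family, and Lims1, an adhesion adaptor (0.74 each), Des like Plxna4 and Pygo2 (0.55 and 0.53), and Pdgfrb like Tff3, a trefoil peptide, and Cops7a (0.71 and 0.7). These correlations describe shared variation within groups, and the samples share the arrays they were measured on.

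Other genes of the same cells and of the matrix were read in the wild-type diet comparison. Of 24 matrix proteins tested, 6 rose and 0 fell in WT_LPD, and all 24 differences were positive, with a median log2 difference of 0.24. The 6 were Lamc1, a laminin chain (0.37 ± 0.08, adjusted p = 0.00437), Mfap4, a microfibril protein (0.57 ± 0.13, adjusted p = 0.00642), Postn, periostin (0.64 ± 0.15, adjusted p = 0.00677), Col14a1, a fibril-associated collagen (0.51 ± 0.12, adjusted p = 0.00769), Sparc (0.39 ± 0.10, adjusted p = 0.0195) and Col5a2 (0.24 ± 0.07, adjusted p = 0.0481). Without WT_CD replicate 8, 4 of the 6 passed (not Sparc or Col5a2), and with a single array set 10 matrix proteins passed in A and 2 in B. Of 11 genes of collagen processing 2 rose, the collagen chaperone Serpinh1 (0.34 ± 0.09, adjusted p = 0.0153) and the procollagen C-proteinase enhancer Pcolce (0.47 ± 0.13, adjusted p = 0.0394), and of 5 matrix proteases and inhibitors 1 rose, the gelatinase Mmp2 (0.64 ± 0.18, adjusted p = 0.0384). When WT_CD replicate 8 was left out, Serpinh1 kept its call (adjusted p = 0.0351), and Pcolce and Mmp2 lost theirs (adjusted p = 0.122 and 0.171). The processing genes P4ha2, P4hb and P4ha1 had negative differences (-0.22, -0.08 and -0.07), as did Mmp9, Timp3 and Mmp14 (-0.12, -0.12 and -0.08). No negative difference passed, and the remaining genes of both lists were positive.

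Stellate cell genes outside the 10 gave 2 rises among 12 tested: Ngfr, the nerve growth factor receptor p75 (0.26 ± 0.07, adjusted p = 0.0317), and Pth1r, the parathyroid hormone receptor (0.23 ± 0.07, adjusted p = 0.0461). Cygb, Steap4, Hand2 and Rgs5 of this list had negative differences (-0.25, -0.09, -0.03 and -0.02), none of which passed. The rest of the list was positive. Among 8 genes of retinoid handling, only Rarb passed as higher (0.52 ± 0.13, adjusted p = 0.0148). Among 14 genes of the smooth muscle contractile apparatus and its regulators, only Myl9 did (0.69 ± 0.19, adjusted p = 0.0271). The retinoid genes Rxra, Rara and Stra6 had negative differences (-0.23, -0.11 and -0.01), as did Mrtfa, Srf and Mylk of the contractile list (-0.17, -0.06 and -0.03). None of these passed, and the other genes of both lists were positive. Without WT_CD replicate 8 none of Ngfr, Pth1r, Rarb and Myl9 passed (adjusted p = 0.0634, 0.0929, 0.0603 and 0.1). None of 18 genes of the TGF-beta pathway passed, the smallest p being that of its receptor Tgfbr1 (-0.31 ± 0.13, adjusted p = 0.194), nor did any of 5 PDGF pathway genes, of which the ligand Pdgfc differed by 0.28 ± 0.13 (adjusted p = 0.268). Neither of the 2 genes tested for reelin reception passed; the receptor Vldlr differed by -0.07 ± 0.17 (adjusted p = 0.902). None of these lists held a gene that passed the diet comparison in ATF7+/– or ATF7+/+ offspring.

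**Figure D5:**
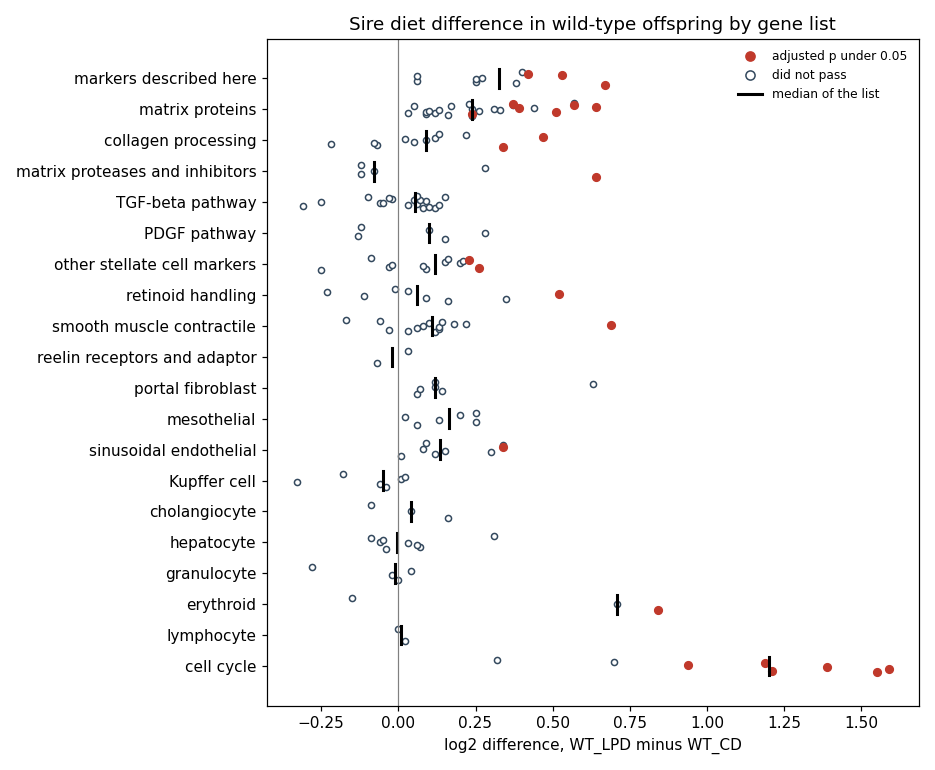
Log2 difference WT_LPD minus WT_CD of every tested gene of each list, 1 row per list, with the 10 markers described here in the top row; filled points passed at an adjusted p under 0.05 and the black bar is the median of the list. Matrix proteins lie to the right of 0 throughout, and the cell cycle list has the largest median, 1.2.

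Markers of neighbouring cell types were read beside these results, and their part in them was not tested. Of 6 portal fibroblast genes none passed, with a median difference of 0.12; Dpt, dermatopontin, differed by 0.63 ± 0.23 (adjusted p = 0.134). Their mean, each gene centred on its mean over all samples, ran from -0.05 to 0.19 in WT_LPD and from -0.33 to 0.1 in WT_CD. Of 6 mesothelial genes none passed (median 0.17, with the smallest p for Lrrn4, 0.20 ± 0.24). Of 8 sinusoidal endothelial genes 1 rose, Cdh5, the endothelial cadherin (0.34 ± 0.08, adjusted p = 0.0105), and all 8 differences were positive with a median of 0.13; without WT_CD replicate 8 Cdh5 had an adjusted p of 0.0526. Kupffer cell and hepatocyte genes had median differences of -0.05 and -0.01 with none of 6 and none of 8 passing; the smallest p belonged to Cd5l (-0.33 ± 0.18) and to Fga (0.31 ± 0.12). Of 3 cholangiocyte genes none passed (Sox9, -0.09 ± 0.10), and the granulocyte and lymphocyte lists, with 4 and 2 genes tested, held none (S100a9 -0.28 ± 0.17 and Cd3e 0.02 ± 0.09).

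Cell cycle genes had the largest median difference of the lists read in the same samples. Of 8 tested 6 rose in WT_LPD, with differences from 0.94 for Cdk1 to 1.59 for Ccna2 (Mki67, 1.55 ± 0.32, adjusted p = 0.00227), and the median over the 8 was 1.2. Without WT_CD replicate 8, 4 of the 6 passed, and set B alone gave none of the 8. Set A alone gave 5 of the 6 and, in place of Ccnb2, Aurka. The mean of the cell cycle genes, each centred on its mean over all samples, ran from -0.02 to 1.12 in WT_LPD and from -1.3 to 0.81 in WT_CD. The mean of the 10 markers, centred the same way, ran from -0.04 to 0.22 in WT_LPD and from -0.57 to -0.05 in WT_CD. The 10 genes were picked with earlier results of these data known, so these ranges give no independent support. Taken singly, all 10 genes overlapped between WT_LPD and WT_CD. WT_CD replicate 8 was low in both means, at -1.28 for the cell cycle genes and -0.57 for the markers. WT_CD replicate 2 was high for the cell cycle genes (0.81) and among the WT_CD samples was also the highest for the markers (-0.05). Of 3 erythroid genes 1 rose, Alas2, the erythroid heme synthesis enzyme (0.84 ± 0.22, adjusted p = 0.0196). Whether these lists bear on the marker differences was not tested. In ATF7+/– and ATF7+/+ offspring the cell cycle list had median differences of -0.19 and 0.09 with none passing.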

How the data were processed

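Mouse liver RNA was measured on 48 Affymetrix gene arrays. Per the submitters' processing notes, the authors made the deposited log2 values with RMA in Affymetrix Expression Console; versions are not given in the sources used here. The values were used as deposited. Arrays have no read depth, and their number limits the precision. Groups came from the labels. Genes were named by GEO's platform annotation, in which 21789 of 23410 listed probe sets carry 1 symbol. Single-symbol probe sets with a mean at or above the 40th percentile (5.46) were kept, 1 per gene, which left 13542 genes.

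Pairs of arrays whose difference on the 5% most variable genes was under 1.5 times that on the 50% most stable genes were averaged. The 5591 probe sets without a listed gene gave the array sets, by their leading principal component. Group means were fitted with limma 3.58.1 in R 4.3.3, two-sided, with Benjamini-Hochberg adjustment over all genes. The members, lists and tests were chosen with earlier results of these data known. Named beside the members were list genes that passed a diet comparison (up to 6 per list, otherwise the gene with the smallest p in wild-type), the 2 genes most like each member, and the brightest marker of each cell type checked. The genes with a negative wild-type difference were also named for the lists of other stellate cell, retinoid, contractile, collagen processing and matrix protease genes.

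Same-numbered samples of both diets deviated together in ATF7+/– (r from 0.18 to 0.74) and ATF7+/+ (0.27 to 0.7), where all 16 such pairs share an array set. In wild-type r was 0.06 to 0.5 in the 4 pairs that share a set and -0.48 to -0.23 in the 4 that do not. Array set means were not taken off and differently numbered samples were not compared. Array set and number therefore cannot be told apart here, and pairing by number was not established. Alternatives changed 1 choice at a time, except the array-set block with the Y-linked covariate. In simulated wild-type diet data of 13542 genes, the fit called 34 of 67 genes made to differ 1.3-fold, 56 of 67 at 1.5-fold and 65 of 66 at 2-fold, and 9 others. The simulated noise was independent between genes, without array sets or outlying samples, so these counts need not carry over to the measured data. Correlations used 100000 permutations, and figures matplotlib 3.10.9 in Python 3.11.15.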

Additional observations from a re-analysis of the deposited data

Results flagged for a closer look

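Acta2 in WT_LPD replicate 8 stood apart from its group, at a log2 value of 8.33 against 7.44 to 7.84 in the other 7 samples. Acta2 in ATF7+/+_CD replicates 7 and 8, the near-identical pair counted as 1 sample, was 6.72 against 7.51 to 7.81 in the other samples of the group. These were 2 of 60 combinations of marker and group examined for a sample far from the rest, and chance gives about 1 in 20.

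The diet difference of Acta2 differed between labels: it was -0.26 in ATF7+/– and 0.67 in wild-type offspring, and wild-type minus ATF7+/– was 0.93 (limma adjusted p = 0.0396). Without WT_LPD replicate 8 it was 0.84 (adjusted p = 0.0807).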

How the results depend on the processing

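For the wild-type diet comparison, where 3 markers and 487 genes passed, 1 marker (Acta2) passed with array weights and 1 (Acta2) with only the groups compared, 6 with the array set as a block, 6 with array set A alone, 0 with set B alone and 8 when a Y-linked covariate joined the block. Genes passing were 379 with array weights, 139 with only the groups compared and 1254 with the set block. They were 2118 in set A alone, 639 in set B alone and 1437 with the block and covariate. Leaving out 1 sample gave 0 to 4 markers and 219 to 589 genes. Wild-type minus ATF7+/–, with 1 marker passing, gave 0 without the filter, 0 with median centring, 0 in set B alone, 2 (Acta2 and Des) with the set block and covariate, 1 (Pdgfrb, not Acta2) in set A alone and 0 to 1 with 1 sample left out; genes passing, 86 with all samples, were 178 with array weights, 299 with the set block, 280 in set A alone, 181 in set B alone and 417 with block and covariate. In set A alone 2 markers passed in the diet difference of wild-type minus ATF7+/+ (3.08% of all genes), 2 between labels in ATF7+/+ minus wild-type (28.6%) and 2 in ATF7+/– minus ATF7+/+ (22.8%), where 0 passed with all samples. A replicate block within label, for a pairing by number that was not established, gave 4 markers and 589 genes in wild-type. The markers were Acta2, Tagln, Des and Reln, with Lrat at a limma adjusted p of 0.0638. A block over all groups gave 4 markers and 520 genes there. Neither changed another count of markers, and the block within label was not fitted for the label comparisons averaged over diet.

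Signs turned for some differences that did not pass with all samples. In wild-type, Col1a1 (0.06) was -0.21 in set A alone and -0.01 to 0.15 with 1 sample left out. Dcn (0.06) was -0.16 in set B alone, while in set A alone it passed at 0.35 (limma adjusted p = 0.0351). In ATF7+/–, Acta2 and Reln were each 0.01 in set A alone. In ATF7+/+, Acta2 was -0.05 in set A alone, Lrat was 0.08 with array weights, 0.03 with the block over all groups, 0.02 in set B alone, 0.01 with the covariate, 0.01 with it and the set block, and -0.09 to 0.09 with 1 sample left out, and Reln was 0.15 with array weights and 0.05 in set B alone. Pdgfrb was -0.17 for ATF7+/+ minus wild-type in set B alone, and for ATF7+/– minus ATF7+/+ 0.13 with array weights and 0.19 in set B alone. In set A alone these 2 Pdgfrb differences passed with the other sign, at 0.59 and -0.42 (limma adjusted p = 0.000268 and 0.00399). Over all 10 markers and the settings that leave out no sample, the sign of the diet difference turned in at least 1 setting for 2 in wild-type, 6 in ATF7+/– (turned values from -0.08 to 0.03) and 7 in ATF7+/+ (-0.05 to 0.18). Tagln in ATF7+/– and the 3 collagens in ATF7+/+ were among them. No turned value of these had a limma adjusted p under 0.303. The causes were not tested. The median wild-type difference of the 10 markers ranged from 0.25 to 0.42 over 31 alternatives, and that in ATF7+/+ from -0.16 to 0.14 over as many, the highest with array weights.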
